A study of Homo sapiens with 5 samples.

Results

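Described here are 10 genes of the Notch pathway in SH-SY5Y cells: the receptors NOTCH1, NOTCH2 and NOTCH3, the ligands DLL3, JAG1, JAG2 and DLK1, and the basic helix-loop-helix (bHLH) factors HES1, HES6 and HEY1. They were chosen by gene symbol, and all 10 were found among the 26364 symbols of the deposited tables, each with a value in every library. SH-SY5Y is a human neuroblastoma cell line with features of immature sympathetic neurons. RNA from it was profiled by sequencing of 3' ends in 5 libraries, 1 for each of 5 groups. The groups were cells given an siRNA against STAU1 (siSTAU1), cells given an siRNA against UPF1 (siUPF1), cells given a control siRNA (siControl), and cells labelled Differentiation and Nondifferentiation. All grew in medium with 10% fetal bovine serum and 1% penicillin/streptomycin, and the labels list 50 μM retinoic acid for Differentiation and, as well, for Nondifferentiation. STAU1 binds double-stranded RNA and recruits the helicase UPF1 to mRNAs in Staufen-mediated decay, and the series asks which transcripts increase on loss of either protein and also when the cells differentiate.

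Notch signalling passes between touching cells. A ligand on one cell binds a receptor on its neighbour, ADAM proteases and the γ-secretase complex then cut the receptor, and the freed intracellular part enters the nucleus and joins the DNA-binding protein RBPJ to switch on genes such as HES1 and HEY1. These encode repressors that hold back proneural factors, so in neural tissue active Notch is known for keeping progenitors from becoming neurons. JAG1 and JAG2 are activating ligands. DLL3 is a divergent Delta protein that stays mostly inside the cell and dampens rather than activates the pathway, and DLK1 is an imprinted Delta-like protein without the domain that activating ligands use to bind Notch. HES6 is an unusual member of its family that opposes HES1 and favours neuronal differentiation in mouse and frog embryos.

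Promoter windows were held for 7 of the 10 genes in the RefSeq sequences (GRCh38.p14), each 300 bases long, from 250 bases before the gene's start to 50 after it. The windows of NOTCH2, HES6 and HES1 are shown because NOTCH2 and HES6 differed in opposite directions between Differentiation and Nondifferentiation and HES1 is the classical target that hardly registered. They lie at chr1:120069613-120069912 on the minus strand for NOTCH2, chr2:238239989-238240288 on the minus strand for HES6 and chr3:194135898-194136197 on the plus strand for HES1. Each is written 5′ to 3′ in the gene's direction, and capitals mark every match, on either strand, to TGGGAA (the RBPJ core), GTGGGAA (its longer form, which contains the core), CACGAG (a form of the N-box bound by HES repressors), CAGCTG (an E-box, the kind of site bound by bHLH activators) or AGGTCA (a half-site of retinoic acid receptors).
NOTCH2: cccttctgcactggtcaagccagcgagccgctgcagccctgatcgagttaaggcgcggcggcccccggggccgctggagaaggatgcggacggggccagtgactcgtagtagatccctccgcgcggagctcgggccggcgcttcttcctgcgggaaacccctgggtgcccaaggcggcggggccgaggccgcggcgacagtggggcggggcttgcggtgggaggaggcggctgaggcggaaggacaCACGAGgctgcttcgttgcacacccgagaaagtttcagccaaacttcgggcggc
HES6: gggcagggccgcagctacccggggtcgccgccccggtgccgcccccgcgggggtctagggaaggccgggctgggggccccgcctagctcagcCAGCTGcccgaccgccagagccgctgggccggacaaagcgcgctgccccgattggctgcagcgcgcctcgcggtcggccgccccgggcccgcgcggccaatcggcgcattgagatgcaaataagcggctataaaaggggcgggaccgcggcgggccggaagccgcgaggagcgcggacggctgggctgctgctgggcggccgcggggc
HES1: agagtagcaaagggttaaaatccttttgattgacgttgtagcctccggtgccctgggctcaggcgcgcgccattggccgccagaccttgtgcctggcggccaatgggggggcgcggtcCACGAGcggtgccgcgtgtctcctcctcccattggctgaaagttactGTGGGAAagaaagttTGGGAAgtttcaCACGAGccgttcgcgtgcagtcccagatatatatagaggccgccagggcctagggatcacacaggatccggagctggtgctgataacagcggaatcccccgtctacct
The HES1 window held TGGGAA at 2 places, one of them within GTGGGAA, and CACGAG at 2 places. Of 35116 windows of this length, 24.0% held TGGGAA, 6.25% held GTGGGAA and 6.78% held CACGAG. NOTCH2 had 1 CACGAG and HES6 had 1 CAGCTG, a word found in 17.9% of windows. AGGTCA, found in 13.8% of windows, was in none of the 7, which says only that these letters are not in these windows. Base composition differed among the shown windows, with 59.0% G and C for HES1, 70.3% for NOTCH2 and 78.0% for HES6.

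The values below are deposited log2 expression values. Reads came from transcript 3' ends, so a value does not scale with transcript length. Levels set side by side between genes are still only a rough guide. How reads were counted, and on which annotation, is not stated. All libraries share nearly the same distribution of values, and genes without reads were listed at 0. Depth was estimated, from the steps between low values, at about 15500000 reads in siSTAU1, 18100000 in siUPF1, 15400000 in siControl, 32900000 in Differentiation and 18300000 in Nondifferentiation. There were no replicates, so no p-value is given, and a gene counts as higher or lower where 2 libraries differed by at least 2-fold. Intervals cover counting error at 95% confidence only. The labels were checked on the targeted genes: STAU1 stood at 11.34 in siSTAU1, against 12.87 in siControl, and UPF1 at 9.20 in siUPF1, against 10.74 in siControl. The noradrenergic markers that define this line, GATA3 and DBH among them, had reads for 8 of 8 genes in each library.

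In these libraries the pathway's genes had very unequal values, with the divergent ligands far above the activating ones. DLK1 was the highest of the 10 in every library but Differentiation, and DLL3 was the highest in Differentiation. HES6 and HEY1 followed, NOTCH2 and NOTCH3 were moderate, and JAG1, HES1, NOTCH1 and JAG2 were near or at the lower limit. A gene was called measured when the larger of its 2 values reached a floor, the median over the nonzero values of both libraries, between 7.76 and 7.84 in the 4 main comparisons. By this rule 6 of the 10 were measured in each comparison, with both values above the floor each time: NOTCH2, NOTCH3, DLL3, DLK1, HES6 and HEY1.

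**Figure D1:**
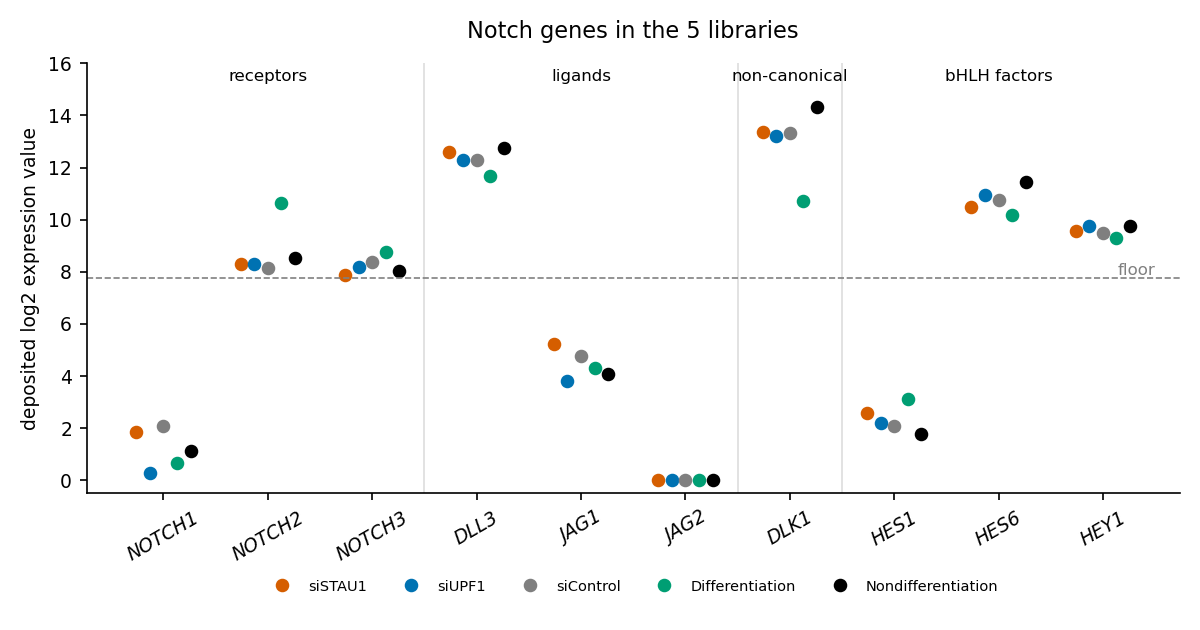
Deposited log2 expression value (vertical axis) of the 10 Notch genes, ordered by role, with 1 point per library. The dashed line is the floor for measured genes in Differentiation against Nondifferentiation; NOTCH1, JAG1, JAG2 and HES1 lie under it in all 5 libraries, and DLK1 and NOTCH2 show the widest spread.

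Among the receptors NOTCH2 was much higher in Differentiation, NOTCH3 was higher by less than 2-fold, and NOTCH1 was barely detected. NOTCH2 stood at 8.28 in siSTAU1 and 8.28 in siUPF1, against 8.16 in siControl, and at 10.62 in Differentiation, against 8.54 in Nondifferentiation. Its value in Differentiation was far above a narrow band formed by the other 4 libraries. The log2 difference of Differentiation from Nondifferentiation was 2.09 (interval 1.93 to 2.25), which is 4.25-fold, and 188 of 9064 measured genes had a larger one. An estimated 2660 reads in Differentiation and 347 in Nondifferentiation lay behind it. In bulk RNA such as this, more cells that express a gene and more RNA per cell cannot be told apart. NOTCH2NL, a partial copy of NOTCH2, stood at 6.29 in Differentiation, against 5.31 in Nondifferentiation, both under the floor, and the sources used here do not say how reads shared by the copies were counted.

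NOTCH3 stood at 7.87 in siSTAU1 and 8.18 in siUPF1, against 8.36 in siControl, and at 8.74 in Differentiation, against 8.04 in Nondifferentiation. Differentiation was the highest library, but siControl and Nondifferentiation, both unperturbed for STAU1 and UPF1, were themselves apart by a log2 difference of 0.32. The difference of Differentiation from Nondifferentiation was 0.70 (interval 0.49 to 0.91). NOTCH1 stood at 1.85 in siSTAU1, 0.26 in siUPF1, 2.07 in siControl, 0.68 in Differentiation and 1.14 in Nondifferentiation. These values correspond to between 1 and 3 reads a library, too few to order. NOTCH2 and NOTCH3 also changed places: NOTCH2 was 0.49 above NOTCH3 in Nondifferentiation, while in siControl NOTCH3 was 0.21 above NOTCH2, a gap inside its counting half-width of 0.26.

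The ligands split into abundant divergent ones, which were lower in Differentiation, and sparse activating ones. DLK1 stood at 13.36 in siSTAU1 and 13.22 in siUPF1, against 13.31 in siControl, and at 10.72 in Differentiation, against 14.31 in Nondifferentiation. The 3 siRNA libraries were close together, Nondifferentiation was above them and Differentiation was far below all 4. The log2 difference of Differentiation from Nondifferentiation was -3.59 (interval -3.65 to -3.54), which is 12.1-fold lower, and 20 of 9064 measured genes had a lower one. DLK1 was the 2370th gene from the top in Differentiation and the 103rd in Nondifferentiation. This is an imprinted gene, expressed from the paternal copy, and the tables do not separate the copies.

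DLL3 stood at 12.59 in siSTAU1 and 12.28 in siUPF1, against 12.30 in siControl, and at 11.69 in Differentiation, against 12.73 in Nondifferentiation. Differentiation was the lowest library. The log2 difference from Nondifferentiation was -1.04 (interval -1.10 to -0.99), 2.06-fold lower, so it lay at the edge of the 2-fold line. The order of these genes also turned: DLL3 was 0.97 above DLK1 in Differentiation, whereas DLK1 was 1.58 above DLL3 in Nondifferentiation. DLK1 also came close to NOTCH2 in Differentiation, where they were 0.09 apart with a counting half-width of 0.08.

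JAG1 stood at 5.25 in siSTAU1 and 3.81 in siUPF1, against 4.75 in siControl, and at 4.31 in Differentiation, against 4.09 in Nondifferentiation. It had about 30 reads in siSTAU1 and 12 in siUPF1, against 20 in siControl, and about 34 in Differentiation, against 16 in Nondifferentiation. The interval of each of the 4 main differences included 0, as for siUPF1 against siControl at -0.95 (interval -1.98 to 0.08). Outside those 4, siSTAU1 against Nondifferentiation had 1.16 (interval 0.29 to 2.04), with both values under the floor. JAG1 is also expressed by many epithelial cells. The 10 epithelial markers examined, KRT8, KRT18 and CDH1 among them, summed to 35.4 RPM (estimated reads in 1000000) in siSTAU1 and 7.75 in siUPF1, against 3.17 in siControl, and to 8.33 in Differentiation, against 3.04 in Nondifferentiation. Their part in the JAG1 values was not tested. JAG2 was listed at 0 in all 5 libraries, which by a limit of 3 counts allows up to 0.0913 RPM in Differentiation, the deepest library, and up to 0.194 in siControl.

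Of the bHLH factors, HES6 was lower in Differentiation, HEY1 was lower by less than 2-fold and HES1 was at the edge of detection. HES6 stood at 10.50 in siSTAU1 and 10.96 in siUPF1, against 10.76 in siControl, and at 10.16 in Differentiation, against 11.46 in Nondifferentiation. Its values formed a graded row, with Differentiation at the low end and Nondifferentiation at the high end. The log2 difference of Differentiation from Nondifferentiation was -1.30 (interval -1.39 to -1.22), 2.47-fold lower. HEY1 stood at 9.55 in siSTAU1 and 9.75 in siUPF1, against 9.48 in siControl, and at 9.28 in Differentiation, against 9.75 in Nondifferentiation. It had the narrowest range of the 6 measured genes, and its difference between Differentiation and Nondifferentiation was -0.47 (interval -0.60 to -0.33).

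HES1 stood at 2.58 in siSTAU1 and 2.20 in siUPF1, against 2.07 in siControl, and at 3.10 in Differentiation, against 1.77 in Nondifferentiation. That is about 5 reads in siSTAU1 and 4 in siUPF1, against 3 in siControl, and about 15 in Differentiation, uncertain by 1 read, against 3 in Nondifferentiation. The share was 0.456 RPM in Differentiation (exact Poisson interval 0.255 to 0.753), against 0.164 in Nondifferentiation (0.0339 to 0.480). These intervals overlap, which is not a test of their difference, and a difference in HES1 was not tested.

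Set against Nondifferentiation, Differentiation had 1 of the 6 measured genes higher, NOTCH2, and 3 lower, DLK1, HES6 and DLL3. Of all 9064 measured genes 10.4% were higher and 10.9% were lower at this threshold. The median log2 difference of the 6 was -0.76, beside 0.02 over all measured genes. The siControl library offered another set of cells without either knockdown, and against it 1 gene was higher and 1 lower, with 11.6% and 12.3% of all measured genes called. NOTCH2 then had 2.47 and DLK1 -2.59. DLL3 had -0.61 and HES6 -0.60 with siControl as the reference and were no longer counted, since siControl lay between Differentiation and Nondifferentiation for both.

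**Figure D2:**
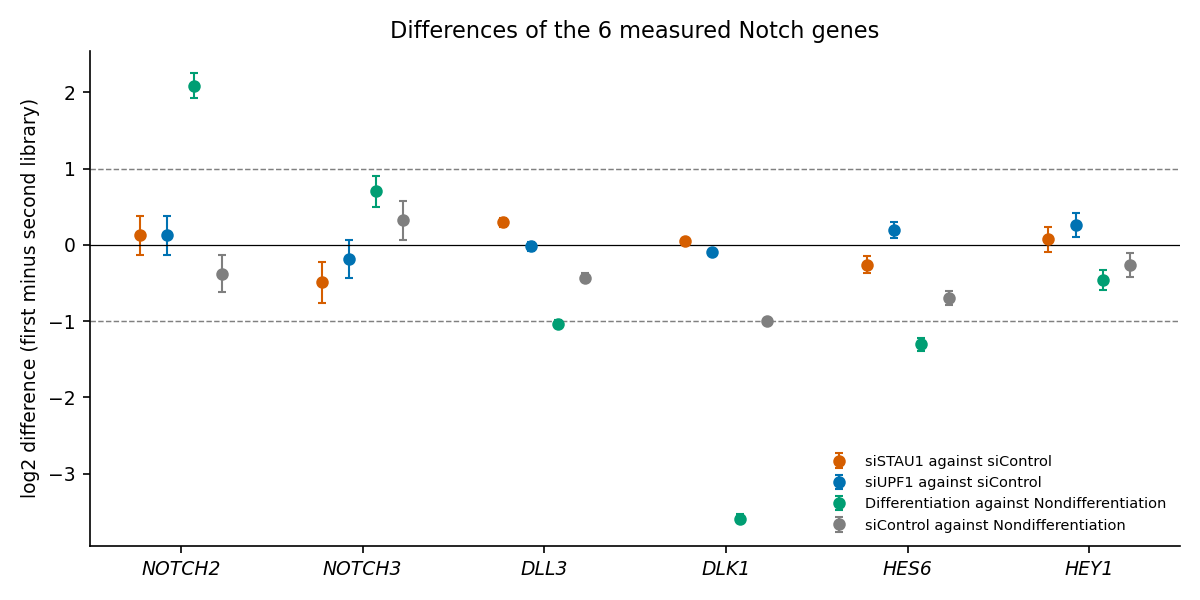
Log2 difference of the 6 measured Notch genes (first minus second library named in the legend) with bars for 95% counting intervals. Dashed lines mark 2-fold; NOTCH2 at 2.09 and DLK1 at -3.59 lie far outside them in Differentiation against Nondifferentiation, and the knockdown points all lie inside.

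siControl and Nondifferentiation were apart in these genes by less than 2-fold. Against Nondifferentiation, 5 of the 6 measured genes had negative log2 differences in siControl and NOTCH3 a positive one. Of all measured genes, 50.7% had positive differences. Among the 6, 0 were counted in either direction, beside 0.222% of all measured genes higher and 0.573% lower. DLK1 had -0.999, just short of 2-fold, and 49 of 8547 measured genes had a lower difference. HES6 had -0.70, DLL3 -0.43, NOTCH2 -0.38 and HEY1 -0.27. The labels list retinoic acid for Nondifferentiation and not for siControl, and transfection, medium and culture cannot be told apart here.

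No measured Notch gene differed by 2-fold in either knockdown library against siControl. In siSTAU1 against siControl 0 of 6 were higher and 0 were lower, where 0.0946% and 0.106% of all measured genes were counted. NOTCH3 had the lowest log2 difference, -0.49 (interval -0.76 to -0.22), and 210 of 8454 measured genes had a lower one. HES6 had -0.26 (interval -0.37 to -0.15). DLL3 had the highest, 0.30 (interval 0.24 to 0.36), and NOTCH2, HEY1 and DLK1 were within 0.13 of 0. The epithelial marker reads given beside JAG1 were also highest in this library, and their part in these values was not tested.

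In siUPF1 against the same siControl library 0 of 6 were higher and 0 were lower, where 0.401% and 0.142% of all measured genes were counted. HEY1 had the highest log2 difference, 0.26 (interval 0.11 to 0.42), followed by HES6 at 0.19 (interval 0.09 to 0.29). NOTCH3 had the lowest, -0.18 (interval -0.43 to 0.06), and DLK1 had -0.09 (interval -0.14 to -0.05). HES6 had opposite signs in the knockdown libraries, which share their control, and this difference between them was not tested. Against Nondifferentiation HES6 had -0.96 in siSTAU1 and -0.51 in siUPF1, the same sign in both. The 10 hepatocyte markers, ALB foremost, summed to 27.4 RPM in siUPF1, against 4.80 RPM in siControl, with 7 of 10 listed at 0 in each, and their part in these values was not tested. The genes counted in Differentiation had small log2 differences here. NOTCH2 had 0.12 in siSTAU1 and 0.12 in siUPF1, beside 2.09 in Differentiation against Nondifferentiation. With Nondifferentiation as the reference DLK1 had -0.95 in siSTAU1 and -1.09 in siUPF1. It was then the 1 member counted as lower in siUPF1, beside 0.829% of all measured genes lower and 0.537% higher, while siSTAU1 again had 0, beside 0.631% lower and 0.281% higher.

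**Figure D3:**
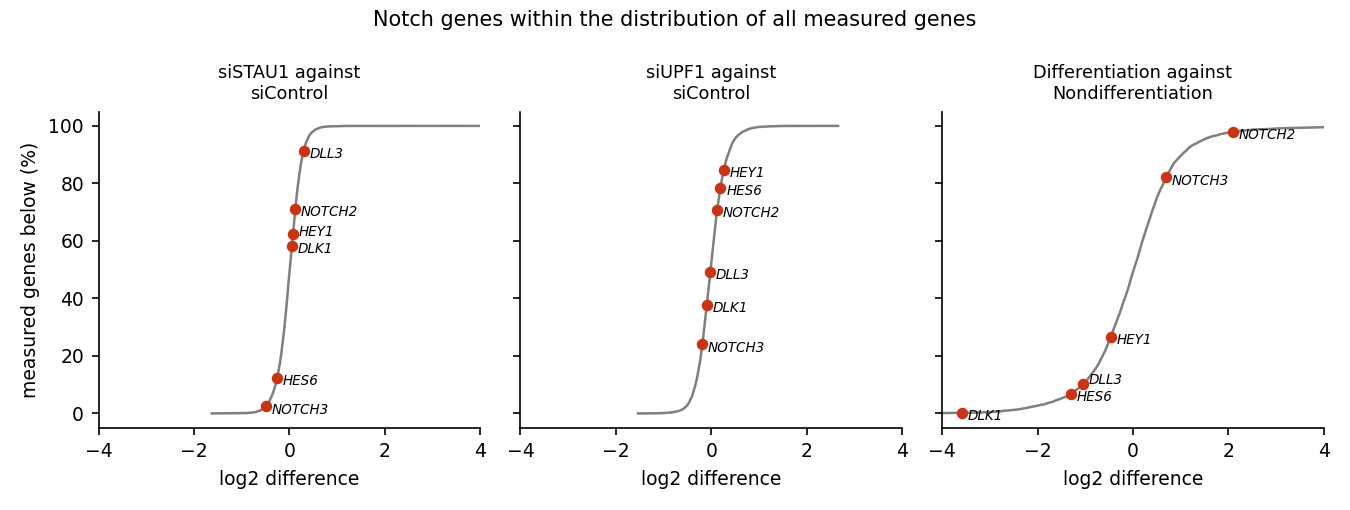
Share of measured genes with a lower log2 difference (vertical axis, percent) against the log2 difference, shown from -4 to 4, for 3 comparisons. The grey line is all measured genes and red points are the 6 Notch genes; in the knockdowns the line is steep and the points sit within 0.5 of 0, while in Differentiation against Nondifferentiation DLK1 has 0.221% and NOTCH2 97.9% of genes below it.

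The rest of the pathway was examined through 9 lists by role, with 73 genes in the files. Of these 43 were measured in Differentiation against Nondifferentiation, and 5 were higher and 2 were lower, beside 10.4% and 10.9% of all measured genes. The median log2 difference of the 43 was 0.46, beside 0.02 over all measured genes, and 34 of 43 were above 0, against 50.8% of all measured genes. Of the 7 counted, CNTN1 and ATOH8 reached the floor in Differentiation alone and LFNG in Nondifferentiation alone. ADAM10, not counted but among the 34, also reached it in Differentiation alone. Against siControl 8 of 43 were higher and 1 was lower, beside 11.6% and 12.3% of all measured genes. Of those counted, CNTN1 and DLK2 reached the floor in Differentiation alone and LFNG in siControl alone. The counts by list below, against Nondifferentiation, stand beside the same 10.4% and 10.9%.

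Genes of receptor cleavage leaned to the higher side. All 7 measured of 8 had positive differences, and 1 was counted as higher. ADAM10 was among the 7 through Differentiation alone, at 8.12, against 7.69 in Nondifferentiation, which was under the floor. NCSTN, the γ-secretase subunit nicastrin, stood at 11.57 in Differentiation, against 10.01 in Nondifferentiation, a log2 difference of 1.56. PSENEN, another subunit, was the lowest of the list at 0.11. NCSTN, at 1.67, was also counted with siControl as the reference.

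LFNG, a Fringe enzyme that adds sugars to Notch receptors and alters which ligands they answer to, was the lowest of the 43. It stood at 9.23 in siSTAU1 and 9.87 in siUPF1, against 9.68 in siControl, and at 7.38 in Differentiation, against 10.33 in Nondifferentiation. Differentiation was below every other library, with a log2 difference from Nondifferentiation of -2.96 (interval -3.14 to -2.77) and from siControl of -2.30. The other 3 measured glycosylation genes lay between -0.17 for POGLUT1 and 0.62 for RFNG.

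Among the other ligands, CNTN1, a neural adhesion molecule reported to bind Notch, stood at 9.57 in Differentiation, against 7.72 in Nondifferentiation, a log2 difference of 1.85. DLK2, the paralogue of DLK1, had 0.35 from Nondifferentiation and 1.33 from siControl, where it was counted as higher. It stood at 8.83 in Differentiation, against 7.51 in siControl, which was under the floor. DLL1, the Delta ligand that activates Notch in neural progenitors, had about 7 reads in Differentiation, against 2 in Nondifferentiation. MIB2, a ubiquitin ligase that drives ligand uptake, had 1.03 and was the 1 counted gene of 10 measured in its list, ahead of DTX3 at 0.98. NEURL1B, another such ligase, was the lowest there at -0.70.

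In the nuclear complex RBPJ itself was nearly level, at 11.97 in Differentiation, against 11.90 in Nondifferentiation. MAML3, a coactivator that binds RBPJ and the receptor fragment, had a log2 difference of 1.15 from Nondifferentiation and 0.79 from siControl. NRARP, a direct Notch target that feeds back on the pathway, stood at 5.95 in Differentiation, against 7.46 in Nondifferentiation, both under the floor, a log2 difference of -1.51 (interval -1.87 to -1.16). HES7 was likewise under the floor, at 3.23 in Differentiation (about 16 reads), against 6.75 in Nondifferentiation (about 101 reads). The other HES and HEY genes had 0 of 7 measured members, and 3 of them were listed at 0 in all libraries. The Groucho family, which includes corepressor partners of HES repressors, had 0 of 4 measured genes counted, between -0.57 for TLE4 and 0.92 for AES. TLE2, the other gene of this list, was under the floor, at 6.60 in Differentiation (about 163 reads), and was listed at 0 in Nondifferentiation. It had about 4 reads in siControl and 4 in siUPF1, and was listed at 0 in siSTAU1. With siControl as the reference AES had 1.09 and was counted as higher.

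Of the proneural and partner factors 1 of 7 measured genes was higher and 1 was lower. ID1, an inhibitor of bHLH partners, had -1.10 from Nondifferentiation and -0.41 from siControl. ATOH8 had 1.17 from Nondifferentiation but -0.10 from siControl. NEUROG1, NEUROD4, NEUROD6 and ATOH1 were listed at 0 throughout.

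**Figure D4:**
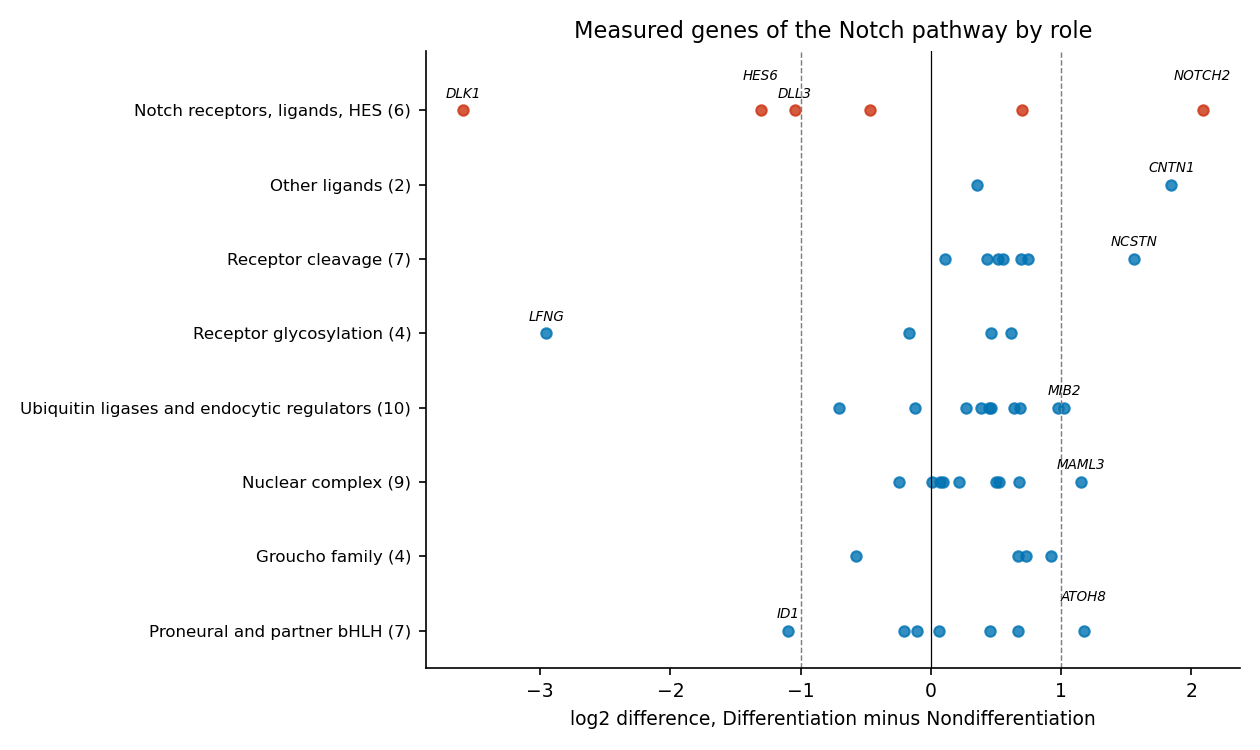
Log2 difference of Differentiation minus Nondifferentiation (horizontal axis) for each measured gene, by role, with the number measured in brackets and dashed lines at 2-fold. Genes past 2-fold are named. All 7 measured cleavage genes lie right of 0, with ADAM10 over the floor in Differentiation alone, and LFNG at -2.96 lies far left.

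In each knockdown against siControl 0 of 42 measured pathway genes were counted in either direction. Of all measured genes, 0.0946% were higher and 0.106% lower in siSTAU1, and 0.401% higher and 0.142% lower in siUPF1. With shares this small, 0 of 42 says little about the pathway. The extremes in siSTAU1 against siControl were NRARP at 0.59 and LFNG at -0.46. In siUPF1 they were PSENEN at 0.75 and EP300, an acetyltransferase that works with the nuclear complex, at -0.55. Both upper extremes passed the rule through the knockdown library alone: NRARP and PSENEN were under the floor in siControl. The medians were 0.06 over the 42 genes of siSTAU1 and 0.04 over the 42 of siUPF1, beside 0.01 and -0.01 over all measured genes. The sets of 42 were not identical: NRARP was measured in siSTAU1 alone and DLK2 in siUPF1 alone.

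Markers of cell state differed between Differentiation and Nondifferentiation as well. The 8 noradrenergic markers summed to 1721 RPM in Differentiation, against 2531 RPM in Nondifferentiation. PHOX2A alone was higher in Differentiation, at 13.65, against 13.08 in Nondifferentiation. The others were lower there, from GATA2 at 11.85, against 12.37, to TH at 5.58, against 8.82. PHOX2A and GATA3 held an estimated 21654 and 20185 of the 56575 noradrenergic marker reads in Differentiation, so this sum does not describe the list as a whole. The 10 mesenchymal markers summed to 5573 RPM in Differentiation, against 2851 RPM in Nondifferentiation, and PRRX1 was listed at 0 in both. Among them FN1 (fibronectin) stood at 16.63 in Differentiation, against 15.45 in Nondifferentiation, and VIM (vimentin) at 11.27 in Differentiation, against 12.52 in Nondifferentiation. FN1 alone held an estimated 170733 of the 183164 mesenchymal marker reads in Differentiation, and 41917 of 52068 in Nondifferentiation. The mesenchymal sum therefore follows FN1 and does not describe the list as a whole. Of 10 hepatocyte markers 8 were listed at 0 in each of these libraries. The 10 summed to 0.335 RPM in Differentiation, against 3.50 RPM in Nondifferentiation. Glial markers summed to 6.26 RPM in Differentiation, against 3.83 in Nondifferentiation, with SOX10 listed at 0 in both. Endothelial markers summed to 0.274 RPM in Differentiation, against 0 in Nondifferentiation, and blood markers to 14.1 RPM in Differentiation, against 8.86 RPM in Nondifferentiation. Their part in the Notch gene differences was not tested.

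The genes whose profiles over the 5 libraries were most like those of NOTCH2, DLL3, DLK1 and HES6, the measured members spanning at least 2-fold, were found among 7311 genes at or above a floor of 7.81 in all libraries. Likeness was the Euclidean distance between log2 values centred on each gene's mean, a description over 5 points with no test. Closest to NOTCH2 were SLC27A3 at 0.14, LTBP3 at 0.17 and NFAT5 at 0.20, where the median gene lay at 2.10. LTBP3, a binding protein of latent TGF-β, stood at 13.21 in Differentiation, against 11.06 in Nondifferentiation. DLL3 was followed by NDUFA9 at 0.08, ARL6IP6 at 0.11 and RAPGEF6 at 0.12, where the median gene lay at 0.90. For DLK1, ARHGAP36 at 0.59, MGST1 at 0.68 and SNAR-A10 at 0.70 came nearest, where the median gene lay at 2.70. SNAR-A10 has near-identical copies that could share reads. HES6 was followed by DDB2 at 0.26, SLC25A10 at 0.27 and CHRNA5 at 0.31, where the median gene lay at 1.07. These distances grow with a gene's range over the libraries, so closeness is not ranked between members.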

How the data were processed

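RNA of SH-SY5Y cells was measured in 5 libraries, 1 in each group, with groups taken from the sample titles. Per the labels' protocols, libraries were made with the Lexogen QuantSeq kit from 500 ng of Trizol-extracted RNA. The authors deposited a log2 expression value for each gene symbol. The submitters' processing notes name Bowtie2, edgeR and hg19 with neither role nor version. How reads were counted, and on which annotation, is not stated. The maximum was 18.01 in every library and the upper quartile 8.63 or 8.64, a pattern of quantile normalization, which is inferred from the values and removes overall differences between libraries.

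Reads were estimated from the order or spacing of the 40 lowest distinct values (0.594 linear units a read in Differentiation to 1.26 in siControl). The lowest steps in Differentiation are uneven. Counting errors assume Poisson reads, and PCR duplicates were not marked. Differences of log2 values from fewer than 4 reads are not given. Differences were computed with pandas 2.3.3, numpy 2.4.6 and scipy 1.17.1 under Python 3.11.15, drawn with matplotlib 3.10.9, and the steps were tested on simulated data. No test was run. Positions of genes are not given because the annotation held is of another build than hg19; promoter windows are RefSeq GRCh38.p14. Named genes were the 10 members, STAU1, UPF1, list genes past 2-fold, the extremes of lists and the 3 nearest profiles. NRARP, HES7, DLL1, RBPJ, NOTCH2NL, TLE2, ADAM10 and the marker genes were named after their values were seen. The members and lists were chosen with earlier results of these data known. A few genes of these lists are not reported here and were left out of the list counts and sums. Alternatives changed the floor, scale, centring, threshold or reference library.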

Additional observations from a re-analysis of the deposited data

How the results depend on the processing

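No paired analysis was possible because each group had 1 library, and for the same reason no library could be left out. Against Nondifferentiation in place of siControl, the median log2 difference of the measured members was -0.22 in siSTAU1 and -0.35 in siUPF1, beside 0.06 and 0.05 with siControl, and 1 member, DLK1, was counted as lower in siUPF1 in place of 0. With siControl as the reference, Differentiation had 1 member lower in place of 3 and a median of -0.40 in place of -0.76. Without the floor, 1 member (NOTCH1) was lower in siUPF1, beside 4.82% of all genes with reads in both libraries. Differentiation then had 2 higher (HES1 added), beside 14%, and a median of -0.46, from genes of a few reads. At 1.5-fold, Differentiation had 2 members higher (NOTCH3 added), beside 21.8% of all measured genes, and siControl against Nondifferentiation 2 lower (DLK1 and HES6), beside 3.21%. After median centring siControl had 1 lower (DLK1), beside 0.585% of all measured genes. For single members, 24 of 24 differences moved by less than their counting interval under the scale alternative. The same count under the floor and centring alternatives is no evidence of stability. A floor leaves a gene's difference unchanged, and centring shifts all genes alike by a small median. The other reference library moved 18 of 18 by more. No counted member changed sign, though some differences short of 2-fold did with the other reference, HES6 in siUPF1 among them. The spread between cultures is unknown, and depth leaves NOTCH1, JAG1, JAG2 and HES1 undecided.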
